A study of Rana pirica with 9 samples.

Results

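Collagens, the small leucine-rich proteoglycans lumican and biglycan, fibronectin, integrins and ADAM proteases were followed in the brain of Rana pirica tadpoles kept with or without salamander larvae, which prey on tadpoles. Members were the probe sets whose single annotated symbol began with the letters of a collagen chain, a laminin chain, an integrin or an ADAM gene, or was lum, dcn, bgn, fmod or fn1. The rule found 70 probe sets of 38 genes among 15491 tested probe sets. It matched 0 laminin probe sets, and laminins, dcn, fmod and the ADAMTS proteases were not analysed here. A further 2 probe sets listed both copies of a member gene, thus several symbols, and were not counted as members.

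The salamander group had 3 arrays and the control group 6, each with RNA pooled from 10 brains, taken before hind limbs grew, after 8 days with salamander larvae or without predators. Samples of a group are labelled as biological replicates, with no word on shared tanks or clutches. If samples shared a tank, the p-values measure only the spread between these pools. The one-colour Affymetrix arrays carry probes for Xenopus, a clawed frog, whereas Rana pirica is a brown frog. Values are log2 signals of a probe set relative to its own median over the control arrays. They give differences between arrays but no level, so the brain label could not be checked against the level of brain markers, and no gene can be ranked against another by abundance. In such bulk tissue, fewer cells of a type and less RNA per cell cannot be told apart.

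The extracellular matrix is the meshwork of proteins and sugars between cells. Collagens form its fibres and sheets, small leucine-rich proteoglycans such as lumican sit on collagen fibrils and set their spacing, and fibronectin links fibres to cells. Integrins are receptors made of an alpha and a beta chain that bind this meshwork from the cell surface, and ADAM proteases cut proteins at that surface. In a vertebrate brain, fibrillar collagens lie mainly in the meninges and around vessels, basement membrane collagens line vessels and the brain's outer surface, and several integrins and ADAM proteins are made by neurons and glia.

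No member passed the test between salamander and control brains. The matrix proteoglycan gene lum had the lowest value relative to controls, with a signal that was 3.52-fold higher in controls than in salamander brains, and an adjusted p in limma of 0.697. The 2 genes of type VI collagen stood on opposite sides, col6a1 at -1.37 and col6a2 at 1.05 on the log2 scale. The chains of type IV collagen, found in basement membranes, lay between -0.35 and 0.26. Genes with an integrin beta symbol, which include itgb1bp2 and itgbl1, not beta chains themselves, had positive differences at 9 of 13 probe sets. The ADAM genes were split 5 to 6.

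Limma called 0 of the 70 member probe sets at an adjusted p under 0.05, against 0% of all probe sets. An unadjusted p under 0.05 was reached by 1 member, lum, or 1.43% of members, where 5.15% of all probe sets reached it. The salamander and control arrays did not overlap in 3 members, or 4.29%, against 2.33% of all probe sets. These were lum and 1 probe set each of the integrin genes itgav and itgb6. Positive differences were found in 38 of 70 members, 54.3%, against 50.1% of all probe sets. The median difference over members was 0.09, and over all probe sets it was 0.0016. As means per gene, 0 of 38 genes were called, against 0% of all genes, and 2, lum and itgb5, had an unadjusted p under 0.05, or 5.26% against 4.81% of all genes. These shares lay near those of all features or rest on 1 to 3 members, so they are no result about the members as a group.

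**Figure D1:**
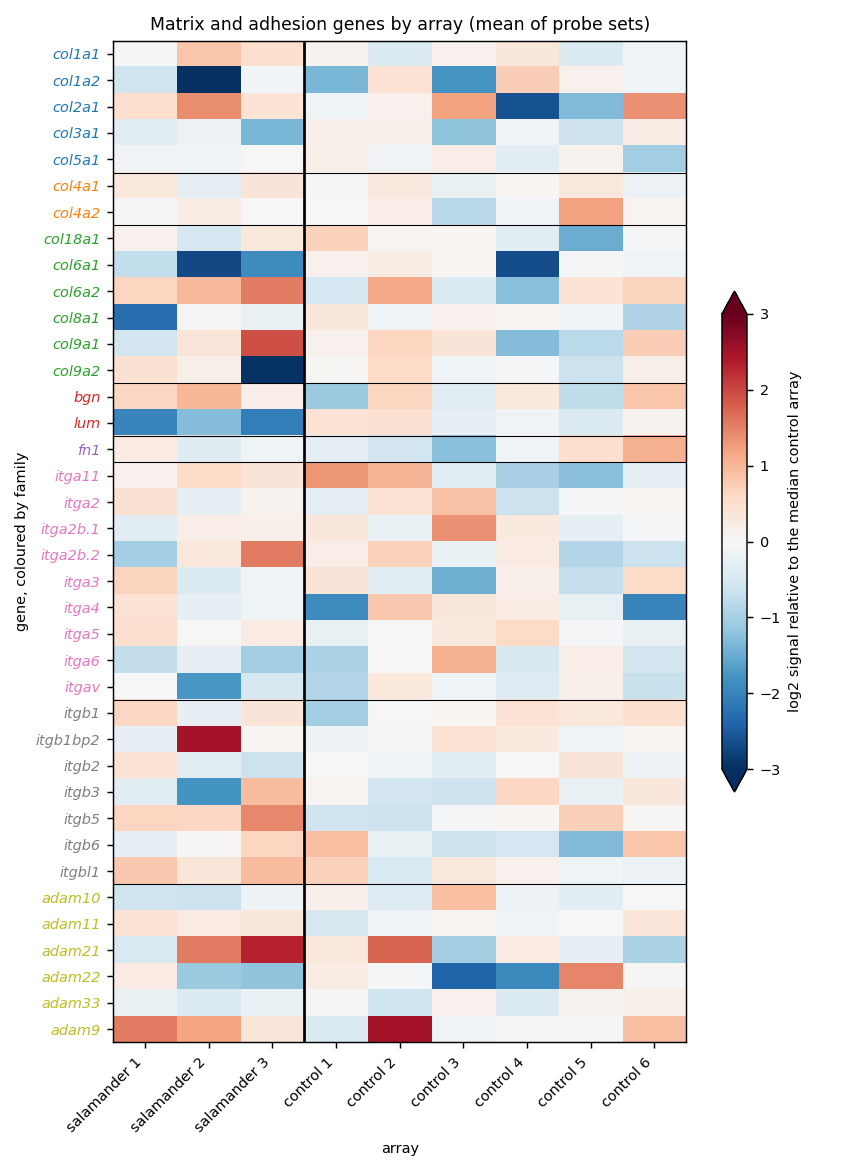
Log2 signal of each of the 38 genes (rows, grouped and coloured by family, mean of the gene's probe sets) on the 3 salamander arrays and then the 6 control arrays (columns), relative to the median control array of each probe set. The colour scale is cut at -3 and 3; lum is the row in which all 3 salamander arrays lie below all 6 control arrays.

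Lumican, encoded by lum, is a keratan sulfate proteoglycan that orders collagen fibrils, best known in the cornea and skin. Its single probe set, Xl.13851.1.A1_at, gave -1.98, -1.30 and -2.07 in salamander brains, against 0.42, 0.45, -0.24, -0.10, -0.43 and 0.10 in control brains. All 3 salamander arrays lay below all 6 control arrays. The means were -1.78 ± 0.42 (SD, n = 3) and 0.03 ± 0.36 (SD, n = 6), and the difference was -1.81 (SE 0.43, 95% confidence interval -2.74 to -0.88). Limma's unadjusted p was 0.00117, rank 26 of 15491, and the adjusted p was 0.697. An exact two-sided permutation test over the 84 ways to choose 3 of 9 arrays gave p = 0.0119, the smallest it can give. The difference was -1.67 within the arrays where spike-in RNAs, control RNAs meant to be added before labelling, read high. It was -2.10 within those where they were low, which include 1 salamander array. With each array left out in turn it stayed between -2.05 and -1.67. The gene was noticed for its small p-value in these same arrays, which favours such stability and a small permutation p. The permutation p was not adjusted over all probe sets and adds no support. The same holds for those of itgav and itgb6 below, which were given because their groups did not overlap.

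Biglycan, bgn, is the other small leucine-rich proteoglycan measured and binds collagen as lumican does. Its values were 0.63, 0.99 and 0.21 in salamander brains, against -1.11, 0.65, -0.32, 0.32, -0.76 and 0.84 in controls. The groups overlapped, with salamander array 2 above every control and the other two inside the control range. Its difference was 0.67 (SE 0.53), opposite in sign to that of lum, with an interval of -0.50 to 1.84 and an adjusted p in limma of 0.987.

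**Figure D2:**
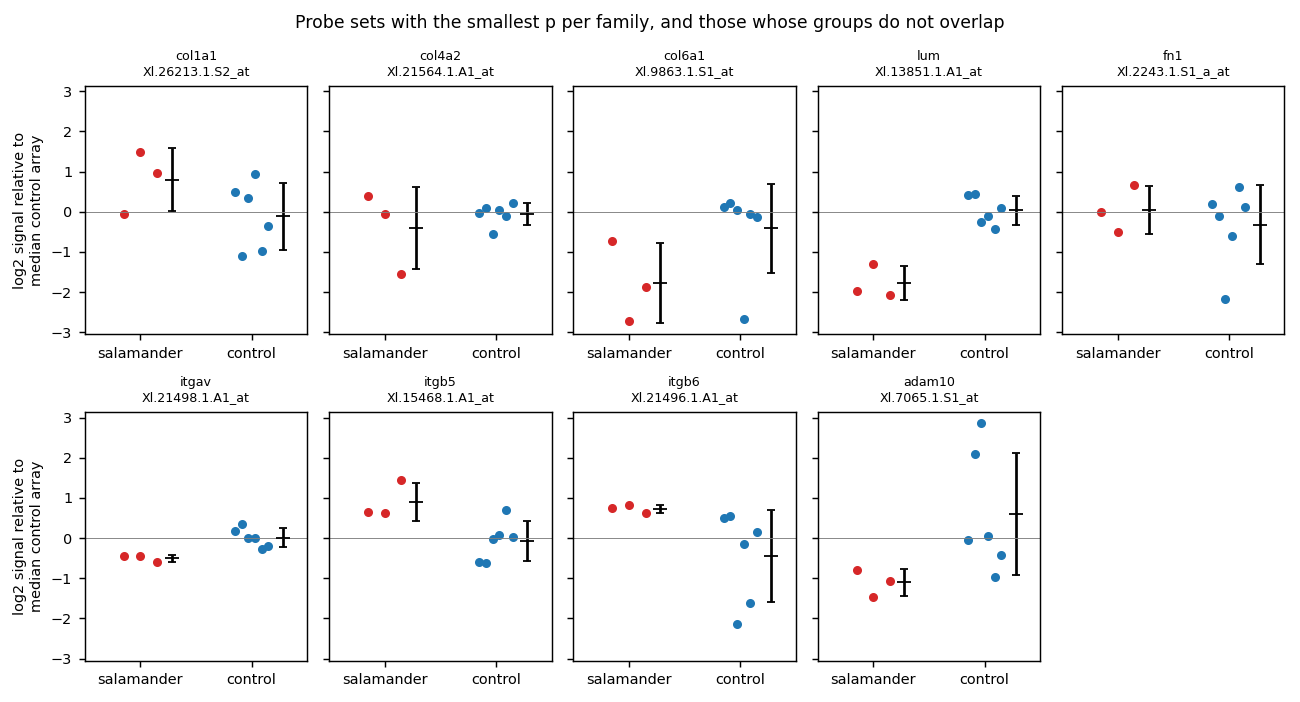
Log2 signal relative to the median control array for 9 probe sets, namely the member with the smallest p in each family and those 3 whose groups did not overlap, with the gene above each panel. Points are single arrays, 3 salamander (red) and 6 control (blue), and bars are the mean ± SD. The salamander points of lum sit between -2.07 and -1.30, below all controls, while in adam10 and col6a1 the groups overlap.

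The fibrillar collagens were represented by 8 probe sets of 5 genes, 4 with positive and 4 with negative differences and a median of 0.04. Type I collagen, the main fibre of skin, bone and tendon, is built from the chains of col1a1 and col1a2. The 2 probe sets of col1a1 gave differences of 0.08 (SE 0.39) and 0.91 (SE 0.58). On the first, Xl.26213.1.S1_at, the interval of -0.76 to 0.92 excluded a 2-fold difference either way. On the second, the salamander arrays read -0.04, 1.49 and 0.95, and the controls 0.49, -1.11, 0.34, 0.94, -0.97 and -0.34, so that the groups overlapped.

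For col1a2 the salamander arrays read -0.59, -3.72 and -0.09, against -1.37, 0.43, -1.77, 0.74, 0.13 and -0.13 in controls. Salamander array 2 alone lay below every control, and without it the difference of -1.14 (SE 0.83) became -0.0085. The probe set of col2a1, the cartilage collagen gene, had 0.51, 1.39 and 0.42 in salamander brains, and its controls ranged from -2.61 to 1.36 with a difference of 1.0 (interval -0.78 to 2.78). Of col3a1, found in vessel walls, the 3 probe sets gave -0.69, -0.51 and -0.00059. The gene col5a1, which helps start collagen fibrils, was at 0.09 with salamander values of -0.11, -0.12 and 0.00087, inside a control range of -1.03 to 0.20.

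Type IV collagen forms the sheets of basement membranes, and its chains from col4a1 and col4a2 assemble together. The 2 probe sets of col4a1 had differences of 0.19 (interval -0.77 to 1.15) and 0.04 (interval -0.83 to 0.92), and the second interval excluded a 2-fold difference either way. On that second probe set, Xl.21561.1.S1_at, the salamander arrays read 0.35, -0.34 and 0.31 and the controls 0.35, 0.30, -0.01, -0.21, 0.01 and -0.08. For col4a2 the 2 probe sets pointed opposite ways, at -0.35 and 0.26. The negative value rested on salamander array 3, at -1.56, since the others read 0.39 and -0.06, and without that array it was 0.22. As a mean over both probe sets, col4a2 stood at -0.05 (interval -1.03 to 0.94). This family had the lowest median replicate SD among the 8 families, 0.51, against 0.96 over all probe sets.

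The other collagens comprised 8 probe sets of 6 genes, again 4 positive and 4 negative. Type VI collagen forms beaded filaments from chains that include those of col6a1 and col6a2. For col6a1 the salamander arrays read -0.74, -2.72 and -1.88, against 0.12, 0.22, 0.05, -2.67, -0.05 and -0.13 in controls. All 3 salamander arrays lay below 5 of the 6 controls, and control array 4 lay among them. Its difference was -1.37 (SE 0.70, adjusted p in limma 0.961), and it was -1.82 without control array 4 and -0.90 without salamander array 2.

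For col6a2 the salamander arrays read 0.65, 0.98 and 1.55, against -0.52, 1.13, -0.40, -1.25, 0.40 and 0.68 in controls. Here the salamander arrays lay high, within or above the upper control values, with a difference of 1.05 (SE 0.57, interval -0.19 to 2.30). The difference between the 2 genes' values was not itself tested. The vessel-wall collagen gene col8a1 had a difference of -0.74 that rested on salamander array 1, at -2.30, beside 0.03 and -0.22 on the others. Likewise col9a2, a gene of the collagen on the surface of cartilage fibrils, was at -0.78 with salamander array 3 at -2.97 and the others at 0.46 and 0.18. Its partner gene col9a1 had 0.84 and 0.39 on 2 probe sets, and the first had salamander array 3 at 3.56. The basement membrane collagen gene col18a1, whose end fragment is endostatin, was at -0.22 and 0.53.

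Fibronectin, fn1, is a glycoprotein of plasma and matrix that integrins hold through a short RGD motif. Its 4 probe sets had differences of 0.38, -0.29, -0.09 and 0.10, and their mean per gene was 0.02 (interval -1.09 to 1.13). The probe set Xl.2243.1.S1_at had the largest replicate SD of all members, 1.67. It read 2.39, -2.05 and -0.95 on the salamander arrays, against -0.40, -1.25, -1.38, 1.68, 0.40 and 1.49 on the controls, so that both extremes belonged to salamander arrays. Another probe set of the same design sequence, Xl.2243.1.S1_a_at, read -0.01, -0.51 and 0.68 on those salamander arrays, with salamander array 3 highest.

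Integrin alpha chains set which matrix protein a receptor binds. Their 20 probe sets of 9 genes were split 10 to 10, with a median difference of 0.06. The range ran from -0.86 to 0.77. Collagen receptors are built with itga2 and itga11, whose genes as means were at 0.02 (interval -0.90 to 0.95) and 0.45 (interval -0.84 to 1.73). For itga2 the interval of this mean excluded a 2-fold difference either way, but it averages opposite values. Its probe sets, at -0.44 (interval -1.85 to 0.98) and 0.48 (interval -1.10 to 2.05), did not exclude it. Laminin receptors use itga3 and itga6, at 0.29 and -0.55 as gene means. On the probe set of itga6 with the lower value, the salamander arrays read -2.09, 0.07 and -2.0, against -2.01, 0.51, 0.39, -0.39, 0.52 and -1.94 in controls. Values near -2 thus occurred in both groups, on 2 salamander and 2 control arrays.

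The fibronectin receptor chain itga5 had 4 probe sets, at 0.34, 0.56, 0.13 and -0.25. Its gene mean of 0.20 (interval -0.60 to 0.99) excluded a 2-fold difference either way, which no single probe set did. That mean includes a pair of opposite orientation on the same design sequence, explained below. The leukocyte chain itga4 was at 0.48, and the platelet chain entries itga2b.1 and itga2b.2 were at -0.22 and 0.38 as gene means. The alpha chain of RGD-binding receptors, itgav, had 3 probe sets that were all negative, at -0.57, -0.35 and -0.51, with a gene mean of -0.48 (interval -1.51 to 0.56).

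On the last of these, Xl.21498.1.A1_at, the salamander arrays read -0.45, -0.44 and -0.60, against 0.18, 0.34, -0.01, 0.01, -0.28 and -0.20 in controls. All 3 salamander arrays lay below all 6 controls, by a small margin. The difference was -0.51 (SE 0.39, unadjusted p in limma 0.217, adjusted p 0.986), and the exact two-sided permutation p was 0.0238. Its replicate SD, 0.20, was among the lowest of the members. The name of this probe set is uncertain. The annotation calls it itgav, yet it calls the probe set of the same design sequence with the other orientation, Xl.21498.1.S1_at, itga2b.1. That second probe set differed by -0.01 (SE 0.58). It bore the weak mark explained below on all 9 arrays, which means a weak signal or a weak control median.

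Beta chains carry the signal into the cell. The 13 probe sets of 7 genes with an integrin beta symbol had 9 positive differences and a median of 0.40. The count includes itgb1bp2, a muscle protein that binds the tail of the beta chain of itgb1, and itgbl1, a secreted protein similar to a beta chain. Both of these had positive differences, at 0.69 and 0.65, and so add to the positive count. The widespread chain itgb1 had probe sets at -0.25, 0.40 and 0.46, and a gene mean of 0.20 (interval -0.75 to 1.16). The leukocyte chain itgb2, in brain a marker of microglia, had 0.26, -0.95 and 0.23. Its gene mean of -0.16 (interval -0.99 to 0.68) excluded a 2-fold difference either way, which no single probe set did. Here too the mean includes a pair of opposite orientation on the same design sequence.

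Partners of the itgav chain include itgb3, itgb5 and itgb6. For itgb5 the salamander arrays read 0.64, 0.62 and 1.45, against -0.60, -0.63, -0.03, 0.07, 0.71 and 0.03 in controls. Salamander arrays lay above 5 of the 6 controls, and control array 5 lay between them. The difference was 0.98 (SE 0.46, adjusted p in limma 0.945), and it was 0.71 to 1.14 with each array left out. For itgb3 the 2 probe sets of one design sequence gave 0.48 and -1.15. The second read -0.22, -2.78 and -0.08 on the salamander arrays and -0.28 to 0.77 on controls, and it stood at -0.27 without salamander array 2.

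For itgb6, an epithelial chain, the probe set Xl.21496.1.A1_at gave 0.74, 0.82 and 0.63 in salamander brains, against 0.50, 0.56, -2.14, -0.16, -1.62 and 0.16 in controls. All 3 salamander arrays lay above all 6 controls. The nearest control was at 0.56. The difference was 1.18 (SE 0.65, adjusted p in limma 0.976), the exact two-sided permutation p was 0.0952, and the difference was 0.84 without control array 3. The other probe set of the same design sequence read -1.32, -0.76 and 0.68 on the salamander arrays, against 1.28, -0.94, 0.83, -0.83, -1.03 and 1.49 in controls. It differed by -0.60 (SE 0.73), with overlapping groups. The salamander values of itgb1bp2 were -0.25, 2.5 and 0.05 and its difference of 0.69 rested on salamander array 2, while itgbl1 read 0.82, 0.36 and 0.95, against a control range of -0.46 to 0.68.

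**Figure D3:**
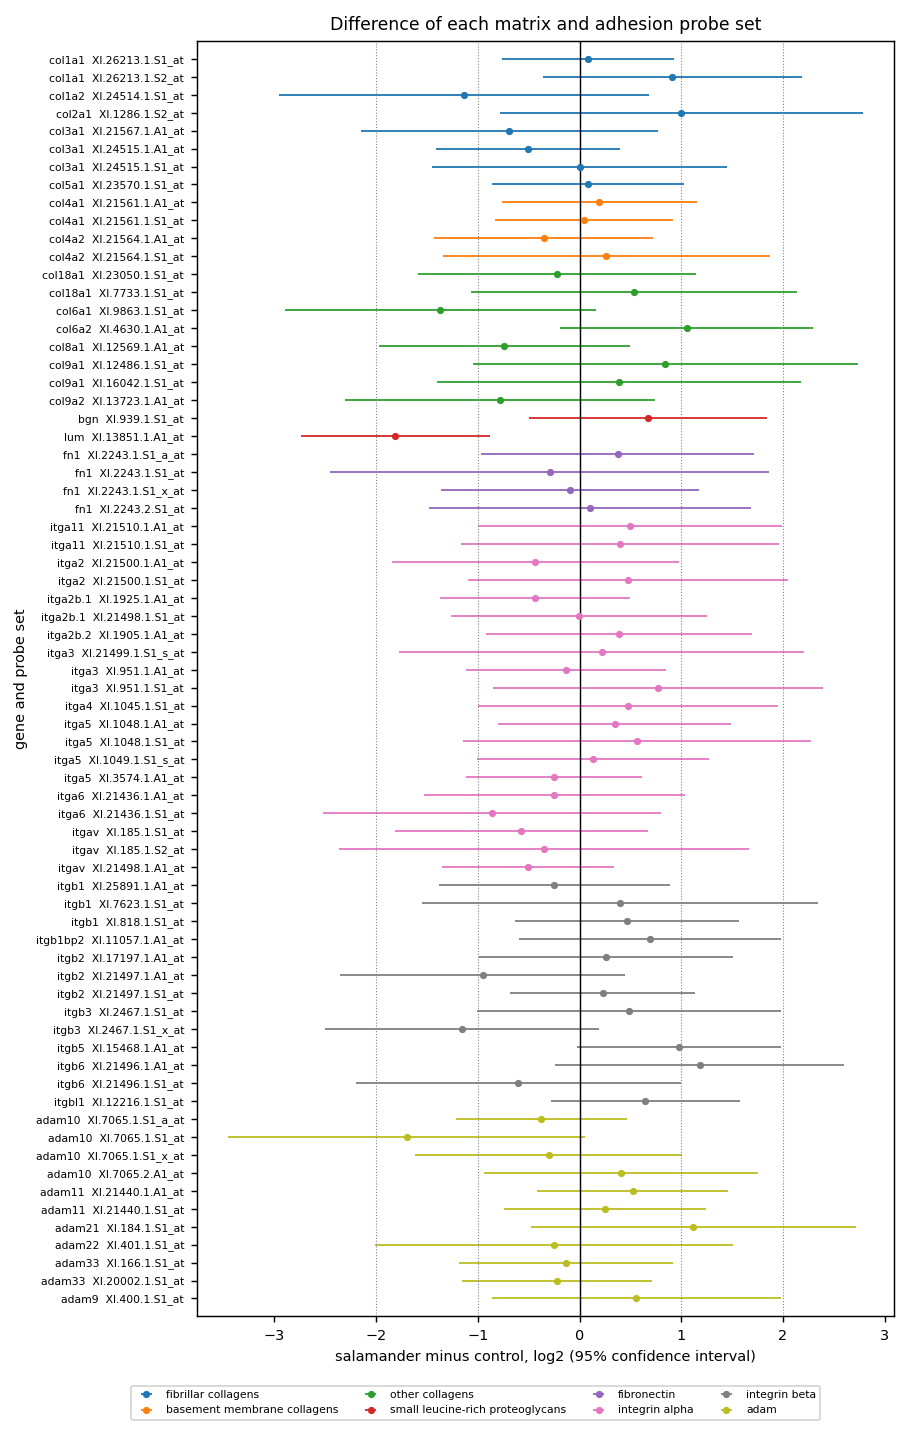
Salamander minus control on the log2 scale (x axis) for each of the 70 probe sets (y axis, gene and probe set), coloured by family, with the 95% confidence interval from limma as bars. Dotted lines mark 2-fold and 4-fold differences. The interval of lum, -2.74 to -0.88, is the one that leaves out 0.

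ADAM proteins combine a metalloprotease and an integrin-binding domain. Their 11 probe sets of 6 genes had 5 positive and 6 negative differences and a median of -0.14. The enzyme of adam10 releases the outer parts of Notch and of the amyloid precursor protein. On its probe set Xl.7065.1.S1_at the salamander arrays read -0.79, -1.46 and -1.06, against -0.04, 2.10, 2.86, 0.04, -0.96 and -0.42 in controls. The salamander arrays lay at the lower end, and control array 5 lay among them. The difference was -1.70 (SE 0.80, adjusted p in limma 0.945), with control arrays 2 and 3 far above the rest, and it was -2.79 within the high spike-in arrays and -0.58 within the low ones.

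The other probe sets of adam10 gave -0.38, -0.31 and 0.41. Of these, Xl.7065.1.S1_a_at varied little, with salamander values of -0.72, -0.16 and -0.30 and a control range of -0.19 to 0.12. The gene mean was -0.49 (interval -1.37 to 0.38). In mammals adam11 and adam22 encode brain proteins without protease activity, and the adam22 protein binds a secreted factor at synapses. Here adam11 was at 0.52 and 0.25, and adam22 at -0.25 with salamander values of 0.25, -1.12 and -1.20 and a control range of -2.40 to 1.47. The adam33 probe sets were at -0.14 and -0.22, with a gene mean of -0.18 (interval -0.97 to 0.61) that excluded a 2-fold difference either way. The metalloprotease gene adam9 was at 0.56 (interval -0.86 to 1.98), with the weak mark on 6 of 9 arrays. The entry adam21 was at 1.12 (SE 0.73), with salamander values of -0.45, 1.55 and 2.31 and the weak mark on 8 of 9 arrays.

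The intervals give the range of differences in probe set signal that is compatible with these arrays. They do not tell how large a difference limma would have called. Whether each Xenopus probe set reads its Rana pirica transcript was not tested, so they set no bound on the RNA of a gene. They excluded a 4-fold difference either way for 44 of 70 members, 62.9%, against 54.6% of all probe sets, and a 2-fold difference for 2, 2.86%, against 2.78%. As gene means, 31 of 38 genes excluded 4-fold, 81.6% against 69.3% of all genes, and 6 excluded 2-fold, 15.8% against 7.96%. A mean can lie near no difference because probe sets of opposite sign cancel, as for itga2. Averaging probe sets also tends to narrow an interval. Of the genes that excluded 2-fold, all but col5a1 were means of 2 to 4 probe sets. The means of col4a1, itga2, itga5 and itgb2 include probe sets of opposite orientation on the same design sequence. As explained below, such probe sets cannot both read the messenger RNA, so these means are not means of transcript signal alone. The gene shares were not matched for the number of probe sets per gene, so they are no result about the members. The 7 genes whose interval still reached 4-fold were adam21, col1a2, col2a1, col6a1, col6a2, col9a2 and lum. The replicate SD of members had a median of 0.88 and ran from 0.18 for a probe set of col1a1 to 1.67 for one of fn1.

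How far probe sets of one gene went together bears on every named value. Of 21 genes with more than 1 probe set, 10 had all differences of one sign, among them adam33, itga6 and itgav on the negative side and adam11, col1a1 and itga11 on the positive. In 25 of 46 pairs within a gene, 54.3%, the differences had the same sign, against 49.9% of the 4219 such pairs of the whole series. Signs without any relation would agree about as often as in the whole series. In Affymetrix names the letter S or A gives the sense or antisense orientation of the design sequence. Where both letters occur on one design sequence, the probe sets read opposite strands, and at most one of them can read the messenger RNA. There were 12 such pairs among the members, counting the pair named itgav and itga2b.1, and 7 of them had differences of one sign.

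The 3 members whose groups did not overlap all carried the letter A, so that 3 of 25 members with A and 0 of 45 with S did not overlap. Among all probe sets the share was 2.32% with A and 2.34% with S. The count with A rests on 3 members, and the 2 letters were not compared by a test. Which letter reads the transcript was not tested. By the rounding of the deposited numbers, a value can be marked as weak, which means that the signal or its control median was below 256. Members with at most 1 weak value numbered 44 of 70, 62.9%, against 47.3% of all probe sets. Another 6, probe sets of adam9, adam21, itga2b.1, itga5 and itga6, had 5 or more. The weak mark is no full count of weak signals, since a weak signal can escape it. It fell on 1 value for lum, on 0 for the itgav probe set Xl.21498.1.A1_at and on 2, both of control arrays, for the itgb6 probe set Xl.21496.1.A1_at.

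**Figure D4:**
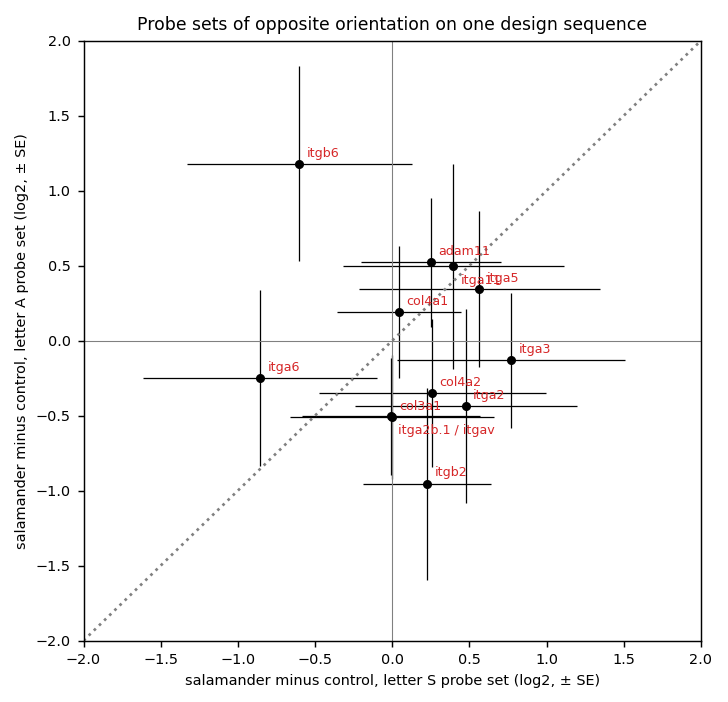
Salamander minus control (log2) for the 12 pairs of probe sets that lie on one design sequence with opposite orientation, with the letter S probe set on the x axis, the letter A probe set on the y axis and bars of ± SE. The dotted line marks equal differences. The pair of itgb6 lies at -0.60 and 1.18, far from the line, and the pairs of itga11 and adam11 lie near it.

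Genes that build, cut and read the matrix were described from lists that the rule did not cover. Matrix turnover, the metalloproteinases and their inhibitors, had 19 probe sets of 13 genes with 8 positive and 11 negative differences and 0 called. The median over its probe sets lay between -0.65 and -0.36 on the salamander arrays and between -0.23 and 0.23 on the controls. The smallest p-values belonged to mmp13l, a collagenase entry, at -1.11 (SE 0.49) on 1 of 3 probe sets, and to mmp21 at -0.89 (SE 0.45). The other probe sets of mmp13l were at 0.40 and -0.65. Collagen processing enzymes had 17 probe sets of 10 genes, split 8 to 9 with 0 called. There ppib, a folding catalyst that helps collagen form its helix, was at -1.46 (SE 0.58) and -0.48 on 2 probe sets. The procollagen protease bmp1 was at 1.32 (SE 0.82) on 1 probe set, and at -0.45 to 0.63 on the other 4. That first probe set bore the weak mark on 8 of 9 arrays.

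Other matrix glycoproteins and proteoglycans had 24 probe sets of 18 genes, 13 positive and 11 negative, with 0 called. The hyaluronan synthase has2 was at 1.35 (SE 0.51, adjusted p in limma 0.866) and thrombospondin thbs4 at 0.72 (SE 0.45) and -0.25. Matrix receptors other than integrins had 16 probe sets of 9 genes, 10 positive and 6 negative, with 0 called. The syndecans, proteoglycans of the cell membrane, stood on both sides, sdc4 at 1.81 (SE 0.71) and sdc2 at -1.47 (SE 0.59) on their probe sets with the smallest p. The other probe sets were at 0.24, 1.23 and 0.40 for sdc4 and at 0.33 and -0.60 for sdc2. The adhesion complex inside the cell had 27 probe sets of 15 genes, 15 positive and 12 negative, with 0 called. The integrin-linked adaptor lims1 was at -1.51 (SE 0.63), 1.27 and 0.17 on its 3 probe sets, and the integrin activator fermt1 at 1.54 (SE 0.68) and -0.01.

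Muscle, skin, blood and cartilage can cling to a brain at dissection and carry matrix genes, and their marker lists had 0 called probe sets. Cartilage markers had a median difference of -0.47 over 3 probe sets, 1 positive and 2 negative. Skeletal muscle had 0.15 over 22, 14 positive and 8 negative. The medians per array for muscle were 0.11 to 0.41 in salamander brains and -0.03 to 0.03 in controls. Centring each row on its control median draws such control medians toward 0 and moves the salamander arrays together. A gap between the groups is thus partly built in, for each of these lists and for matrix turnover. The skin list held every symbol that begins with krt, whether or not the keratin is particular to skin. These keratins had 11 positive of 30 and a median difference of -0.22. Their array medians were -0.28 to -0.26 in salamander brains and -0.29 to 0.26 in controls. Erythrocyte markers had 1 positive of 8 and a median of -0.37, with -1.01 to -0.30 in salamander brains and -0.27 to 0.40 in controls. Endothelial markers were at 0.10 over 5 probe sets, and neuronal markers were positive in 10 of 13 with a median of 0.61, at 0.20 to 0.65 in salamander brains and -0.11 to 0.15 in controls. The probe set with the smallest p in each list was given by slc4a1, ihh, krt55, ckm, erg and ina. The anion exchanger of red cells, slc4a1, read -2.33, -2.11 and -2.11 in salamander brains, against -0.11, 0.14, -1.33, 0.95, 0.11 and -1.44 in controls. All 3 salamander arrays lay below all 6 controls, as for lum, and the difference of -1.90 (SE 0.57, unadjusted p in limma 0.0062, adjusted p 0.769) was near that of lum. The cartilage signal ihh was at -2.01 (SE 0.73, adjusted p in limma 0.866) with overlapping groups. Another gene of the cartilage list, sox9, went the other way, at 1.06 (SE 0.73), also with overlapping groups. Whether the genes of this list read cartilage in brain RNA was not tested. The keratin krt55 was at 1.24 (SE 0.40, adjusted p in limma 0.798), and the neuronal filament gene ina was at 2.68 (SE 0.71, adjusted p in limma 0.734). In both, all 3 salamander arrays lay above all 6 controls. Another keratin, krt70, went the other way on its probe set with the smallest p, at -1.36 (SE 0.53), and stood at -0.41 to 0.51 on its others. The muscle creatine kinase ckm was at 1.05 (SE 0.63), and erg, of endothelium, at -0.61 (SE 0.74), with overlapping groups. The other probe sets of ckm were at 0.29 and 0.41. Another endothelial marker, tek, was at 0.45 (SE 0.55). With the next smallest p in their lists, hba3 of erythrocytes was at -1.58 (SE 0.78) and nefm of neurons at 1.84 (SE 0.61). For muscle, myl1 was at 0.90 (SE 0.56). The other probe sets were at -0.13 for nefm and at -0.30, -0.26 and 0.70 for myl1. The weak mark fell on 2 of 9 values for slc4a1, 3 for ina, 4 for ihh, 5 for krt55 and erg, and 6 for ckm and sox9. The part of these lists in the values of lum and the other members was not tested, and no marker can be shown to be at 0, since levels are unknown.

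The poly-A spike-in RNAs, meant to be added before labelling, separated the arrays into a set with high and a set with low spike-in signals. Both sets held both groups. How much was added to each sample is not known here. The spike-in mean was 1.04 to 1.60 on salamander arrays 1 and 2 and control arrays 2, 3 and 4, and -2.04 to -1.54 on salamander array 3 and control arrays 1, 5 and 6. The mean of the hybridization controls, other Affymetrix control probe sets, was 0.07 to 0.37 on the high set and -0.24 to -0.12 on the low set. In 30 of 70 members the difference had opposite signs within the 2 sets. With the set as a block, lum was at -1.84, itgb5 at 1.05, col6a2 at 1.13, itgb6 at 1.20 and adam10 at -1.94 on the probe sets described, and 0 members were called.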

How the data were processed

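Brain RNA of 3 salamander and 6 control pools of 10 brains was hybridized to one-colour Affymetrix Xenopus arrays. The submitters' processing notes name MAS5, the Affymetrix signal algorithm, with a version not given in the sources used here. As deposited, the table has 15611 probe sets, 9 arrays with log2 values and 0 columns from elsewhere. The control median of each row was 0, departing by at most 9.5e-07, so the authors' log2 values had been centred on it. The log scale and this centring are stated by no label and were inferred from the values, base 2 from their rounding steps. How arrays were scaled before centring is unknown. Absolute signals, and a filter or trend on them, were therefore not available. The alternative called bright kept probe sets with at most 1 weak mark over the 9 arrays. A weak signal can escape that mark, so these probe sets are not all known to be bright.

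Limma's lmFit and eBayes (limma 3.58.1, R 4.3.3), without a trend, were fitted to all 15491 probe sets other than 120 Affymetrix controls, as salamander minus control over 9 arrays. Benjamini-Hochberg adjustment ran over all of them, with calls at an adjusted p under 0.05. The fit was tested on simulated data. Tables and figures used Python 3.11.15, pandas 2.3.3 and matplotlib 3.10.9. Groups and replicate numbers came from the sample titles. Symbols came from the platform annotation, in lower case without copy endings. It held 9499 probe sets, 9304 with 1 symbol and 195 with several, and 5992 tested probe sets were unnamed here. The few arrays limit the precision. Members, gene lists and families were chosen with earlier results of these data known. Named were the 2 smallest p per family and matrix list, members without overlap or with an unadjusted p under 0.05, genes with 3 or more probe sets and a list of defining genes, which left 45 members named by rule, 17 of them for their p-value or lack of overlap. The other members, and the marker genes of other tissues, are named outside that rule, and so were chosen after their values were seen. Alternatives covered normalization, moderation, gene means, weak signals, spike-in sets, replicate numbers and arrays left out. The letter S alternative was added after seeing the data.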

Additional observations from a re-analysis of the deposited data

Results flagged for a closer look

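In 7 of the 70 member probe sets, 10% of them, 1 control array stood far from the other 5, judged by its gap to the nearest control relative to the controls' range. For normally distributed values, chance alone puts about 1 group in 20 past that limit. The share over all probe sets was not counted, so the 10% is no result about the members. In the collagen genes these were control array 4 at -2.67 for col6a1 (nearest control -0.13), control array 5 at -2.68 for 1 probe set of col18a1 (nearest -0.39) and control array 6 at -0.90 for col8a1 (nearest -0.10). In the integrin genes they were control array 5 at -1.73 for itga5 (nearest -0.28), and control array 3 for 2 probe sets of itgb2, at 1.43 on one and -2.25 on the other. In adam33 control array 6 stood at 0.43 (nearest 0.0080). The arrays so marked were control 3 in 2 probe sets, control 4 in 1, control 5 in 2 and control 6 in 2. What set these arrays apart was not tested.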

How the results depend on the processing

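Limma called 0 probe sets, members or not, under each alternative tried, and the smallest adjusted p of a member lay between 0.39 without moderation and 1.0 after quantile normalization. The difference of lum stayed negative, from -2.10 within the low spike-in arrays to -1.63 after quantile normalization. The number of members at an unadjusted p under 0.05, 1 as reported, is given here with the share of all features under the same alternative. It was 2 of 44 bright probe sets (all 4.85%), 2 of 38 gene means (4.81%), 2 of 70 within the high (5.53%) and 5 within the low spike-in arrays (5.4%), 5 without moderation (4.64%), 3 with the spike-in set as a block (5.56%), 0 of 45 letter S probe sets (5.13%) and 1 to 4 with 1 array left out (5.02% to 5.44%). Members without overlap, 3 as reported, numbered 1 as gene means (all 2.19%), 1 after quantile normalization (1.11%), 9 within the high (12.9% against 19.9%) and 31 within the low spike-in arrays (44.3% against 49.7%), 0 among letter S probe sets (2.34%) and 3 to 6 with 1 array left out (3.48% to 7.11%).

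Family medians moved in these cases, among others. Apart from the proteoglycans, each family median listed in this paragraph moved by less than the median SE of the family's probe sets, 0.59 to 0.70. That is the SE of single probe sets and not of a family median. For fibrillar collagens the median was 0.16 within the low spike-in arrays and ran from -0.17 to 0.10 with 1 array left out. For the other collagens it was -0.48 among bright probe sets. For fibronectin, 0.0059 as reported, it was 0.58 within the high and -0.57 within the low spike-in arrays. For the proteoglycans it was 0.67 among letter S probe sets, which leaves bgn alone. For integrin alpha it was -0.31 within the high spike-in arrays and -0.16 to 0.16 with 1 array left out, and for integrin beta -0.00080 to 0.42. For the ADAM genes it was 0.10 as gene means, 0.22 within the high and 0.0067 within the low spike-in arrays, and -0.23 to 0.14 with 1 array left out. Of the 17 members named for their p-value or for groups that did not overlap, 3 changed sign under an alternative. The probe set of col4a2 was at 0.31 within the high spike-in arrays and -0.75 to 0.22 with 1 array left out, and col1a2 at 0.37 within the low ones. The fn1 probe set was at 0.023 as a gene mean, 0.49 within the high spike-in arrays, 0.80 with the replicate block and -1.59 to 0.63 with 1 array left out. Over all 70 members, 30 changed sign with 1 array left out. The cause of these changes was not tested.

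The replicate numbers did not pair the samples: deviations of same-numbered arrays correlated at 0.0059, 0.016 and -0.0049. With the replicate block, 3 members had an unadjusted p in limma under 0.05 (all 5.35%) and 0 were called. The medians were then -0.63 for the other collagens, 0.74 for fibronectin, -0.21 for integrin alpha and 0.049 for the ADAM genes. The moves of the other collagens and of fibronectin were larger than the median SE of their probe sets, 0.70 and 0.67.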
